A study of Mus musculus with 24 samples.

Results

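Acetylation of lysine 9 on histone H3 (H3K9ac) was compared between 2 clones of mouse embryonic stem cells that lack Gcn5, called 6_C4 and 4_C2, after both had formed embryoid bodies for 5 days. Embryoid bodies are cell aggregates in which stem cells leave pluripotency and begin to form the germ layers. Both clones carry the genotype Gcn5-/- on strain C57BL/6, and each genotype label stands for single clones: 6_C4 belongs to isolate pair 6 with the floxed clone 6_1, and 4_C2 belongs to isolate pair 4 with the floxed clone 4_1. The floxed clones are Gcn5fx/fx, so their Gcn5 alleles carry recombination sites, and they were differentiated for the same 5 days on the same strain. The members compared were the peaks of the 4 H3K9ac lists of the null clones, 2 replicates of each. Overlapping peaks of these 4 lists alone were merged into 22288 regions, whereas merging the lists of all 8 H3K9ac libraries gave 26034. Of the 24 samples of the series, 16 (total H3 and input) were not used here. Replicates of 1 clone have a common history, so differences between 6_C4 and 4_C2 compare 2 clones and cannot be told apart from differences between any 2 clones.

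H3K9ac sits mainly at the start sites of genes that are being transcribed or are ready to be, and at active enhancers, where acetylation loosens chromatin and is read by bromodomain proteins. Gcn5, encoded by Kat2a, is one of the acetyltransferases that place it, as the catalytic subunit of the SAGA and ATAC coactivator complexes. Its relative Pcaf, encoded by Kat2b, can occupy the same position in these complexes. During early differentiation, pluripotency genes such as Pou5f1 and Nanog lose active marks while genes of the epiblast, primitive streak and germ layers gain them.

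A region here was called 6_C4-only when a peak of both 6_C4 lists and of neither 4_C2 list overlapped it, and 4_C2-only in the reverse case. Of the 22288 regions, 2195 (9.85%) were 6_C4-only, 102 (0.458%) were 4_C2-only and 10609 were in all 4 lists. A gene had a peak in a list when one lay within 1000 bp of its annotated start, or of either gene end where the promoter table gives no start. The term gene start stands below for all these windows, so for genes without an annotated start it can mean the other end. Of 13279 protein-coding genes with a peak in at least 1 null list, 590 (4.44%) were 6_C4-only and 53 (0.399%) were 4_C2-only. The 53 lie in only 36 regions, as 17 are protocadherin gamma models matched through 1 region at their common gene end. The direction of these sets is fixed by how they were chosen, so it carries no test. Among 6_C4-only genes were Tdgf1, Lefty1, Zfp42, Foxd3, Eomes and Sox17, which act in pluripotency or in the first germ layer decisions. Among 4_C2-only genes were Gbp2 and Irgm2, which encode interferon-inducible GTPases, and 49 of the 102 4_C2-only regions lay on chromosome 11.

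The promoters of 4 genes are shown because these genes had the widest clone-only peaks among those with a start in the promoter table, 2 for each clone. Each sequence runs 5′ to 3′ from 250 bases before to 50 bases after the annotated start, taken from RefSeq on GRCm38.p6, and capitals mark a GC box (GGGCGG) or a CCAAT box on either strand.
Tdgf1 promoter, chr9:110946109-110946408, minus strand: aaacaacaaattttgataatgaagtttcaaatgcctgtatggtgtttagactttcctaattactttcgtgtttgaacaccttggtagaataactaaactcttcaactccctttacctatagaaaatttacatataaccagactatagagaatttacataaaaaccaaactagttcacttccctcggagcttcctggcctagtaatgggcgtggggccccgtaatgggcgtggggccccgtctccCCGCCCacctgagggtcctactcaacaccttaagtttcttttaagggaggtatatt
Cbx7 promoter, chr15:79932597-79932896, minus strand: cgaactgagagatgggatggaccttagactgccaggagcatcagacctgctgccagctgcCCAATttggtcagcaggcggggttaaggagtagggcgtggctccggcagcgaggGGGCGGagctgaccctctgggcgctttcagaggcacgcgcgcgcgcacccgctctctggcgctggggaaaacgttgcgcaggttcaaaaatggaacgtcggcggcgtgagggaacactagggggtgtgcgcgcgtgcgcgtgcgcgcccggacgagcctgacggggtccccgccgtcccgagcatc
Gbp2 promoter, chr3:142620413-142620712, plus strand: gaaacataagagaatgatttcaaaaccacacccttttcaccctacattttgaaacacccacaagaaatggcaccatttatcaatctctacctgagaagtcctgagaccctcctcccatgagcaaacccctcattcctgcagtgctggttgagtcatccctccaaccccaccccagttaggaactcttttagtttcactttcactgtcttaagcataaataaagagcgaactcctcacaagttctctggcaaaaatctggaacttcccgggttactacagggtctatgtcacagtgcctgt
Ghdc promoter, chr11:100770908-100771207, minus strand: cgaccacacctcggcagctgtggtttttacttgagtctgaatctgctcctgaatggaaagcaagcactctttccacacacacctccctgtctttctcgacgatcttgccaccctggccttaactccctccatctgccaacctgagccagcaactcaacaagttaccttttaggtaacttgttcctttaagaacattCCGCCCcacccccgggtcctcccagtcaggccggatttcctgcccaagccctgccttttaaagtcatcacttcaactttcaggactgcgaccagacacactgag
The Cbx7 promoter had a GC content of 67.3% and 33 CpG dinucleotides, against 41.7% and 7 for Tdgf1, 52.3% and 8 for Ghdc, and 45.0% and 2 for Gbp2. A GC box was found in Tdgf1, Cbx7 and Ghdc, a CCAAT box in Cbx7, and neither an E-box (CACGTG) nor a TATA box (TATAAA) in any of the 4 windows.

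These sequences differed in the CpG content that sets promoter classes apart, and so did the sets they came from. Of all protein-coding genes, 17492 had a promoter in the table. Their median ratio of observed to expected CpG was 0.60, and 47.6% held a GC box. The 8413 promoters of genes with a peak in all 4 null lists had a median ratio of 0.824, and 72.1% held a GC box. The 447 promoters of 6_C4-only genes had a median ratio of 0.641 and a GC box in 64.7%. The 28 promoters of 4_C2-only genes had a median ratio of 0.411 and a GC box in 42.9%, and the 6872 promoters of genes with no peak in any null list had 0.183 and 13.4%. CpG-rich promoters are the usual sites of broad H3K9ac, and both clone-only sets had a median between those of the genes marked in all 4 lists and of the genes marked in none. The E-box, which Myc and Max can bind, was in 7.87% of all promoters, 9.62% of 6_C4-only and 0 of 28 4_C2-only promoters. The CCAAT box was in 38.6%, 39.8% and 25% of the same sets, and the TATA box in 13.1%, 9.17% and 10.7%.

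The lists themselves differed in length, which bears on every count. Clone 6_C4 gave 18932 and 17849 peaks, and clone 4_C2 gave 14947 and 12041. The mean was 18390.5 ± 766 for 6_C4 and 13494 ± 2055 for 4_C2 (SD, n = 2 each), without overlap between the clones (two-sided exact permutation p = 0.333, the smallest that 2 libraries against 2 allow). Covered length was 39.4 and 36.5 Mb in 6_C4 against 30.2 and 21.8 Mb in 4_C2. Peaks lay at a gene start in 63.7 and 66.7% of cases in 6_C4 and in 74.5 and 82.6% in 4_C2. Median peak width did not separate the clones, at 1796 and 1778 bp in 6_C4 and 1822 and 1639 bp in 4_C2. The floxed libraries of the same isolates ran in the same order, with 20809 and 18477 peaks in 6_1 and 15315 and 13260 in 4_1. Sequencing depth is unknown and no list gives peak heights, so list length and acetylation cannot be told apart. The share of regions in common to 2 lists, out of the regions in either, was 0.718 within each clone and ran from 0.58 to 0.68 between clones.

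When every list was cut to its 12041 widest peaks, the length of the shortest list, 741 of 15575 regions were 6_C4-only and 518 were 4_C2-only. The excess in 6_C4 was therefore much smaller among lists of equal length. For genes the order turned, with 243 genes 6_C4-only (2.03%) and 300 genes 4_C2-only (2.50%). The cut removed the narrowest peaks of the longer lists and none of 4_C2 replicate 2, and a removed peak counts as absent. A gene can thus be 4_C2-only here although its full 6_C4 lists hold a peak, so the turn cannot be separated from the cut. Of the 590 and 53 genes, 146 and 35 kept their set. Counts also rose when fewer lists had to agree: 6_C4-only regions numbered 4315 without 6_C4 replicate 1, 5340 without 6_C4 replicate 2 and 4127 without 4_C2 replicate 1, and 4_C2-only regions numbered 1225 without 4_C2 replicate 2 and 364 without 4_C2 replicate 1, and 201 and 199 without 6_C4 replicate 1 and 2. For genes, the 6_C4-only count was 1683 without 4_C2 replicate 1 and 942 without 6_C4 replicate 2, and the 4_C2-only count was 211 without 4_C2 replicate 2 and 93 and 84 without 6_C4 replicate 1 and 2.

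Location set the clone-only regions apart from the shared ones. Of the regions in all 4 null lists, 88.1% lay at a gene start, 6.68% inside a gene away from its start and 5.24% between genes. Of the 6_C4-only regions, 31.4% lay at a gene start, 44.5% inside a gene and 24.1% between genes. Of the 4_C2-only regions, 42.2%, 51.0% and 6.86% fell in these classes, the last being 7 regions. Regions were short in both sets, with a median covered length of 1350 bp for 6_C4-only and 1376 bp for 4_C2-only regions against 2146 bp for regions in all 4 lists. Over all 22288 regions the shares were 56.7% at a gene start, 29.1% inside a gene and 14.2% between genes, and the median covered length was 1564 bp. With lists of equal length, as defined above, 36.0% of 6_C4-only and 57.3% of 4_C2-only regions lay at a gene start. The share over all regions of those shortened lists was not computed, so these values have no matching background.

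The widest 6_C4-only regions away from gene starts were at chr4:141281752-141289999, chr1:136671509-136678327 and chr9:114544932-114550182. The first lay 11222 bp from Epha2, an ephrin receptor, and was covered over 6313 and 7219 bp in 6_C4, 0 bp in both 4_C2 lists, 6552 and 6878 bp in 6_1 and 1446 and 0 bp in 4_1. The second lay 41118 bp from Zfp281, a zinc finger factor of the pluripotency network, and was covered over 6804 and 6452 bp in 6_C4, 6668 and 6819 bp in 6_1 and 0 bp in the 4 lists of 4_C2 and 4_1. The third lay inside Trim71, a target of let-7 that is active in stem cells, with 4893 and 5251 bp in 6_C4, 0 bp in both 4_C2 lists, 3500 and 4458 bp in 6_1 and 1537 and 0 bp in 4_1. All 3 were therefore also wide in the floxed clone of the same isolate. The widest 4_C2-only regions of this kind were all on chromosome 11, inside Slc38a10 (2996 and 2209 bp), Cwc25 (3344 and 1790 bp) and Med24 (3480 and 1541 bp). The Slc38a10 region had no peak in any floxed list. The Cwc25 region had 2118 bp in 4_1 replicate 1 and the Med24 region 1109 bp in 6_1 replicate 1, each with no peak in the other floxed lists.

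**Figure D1:**
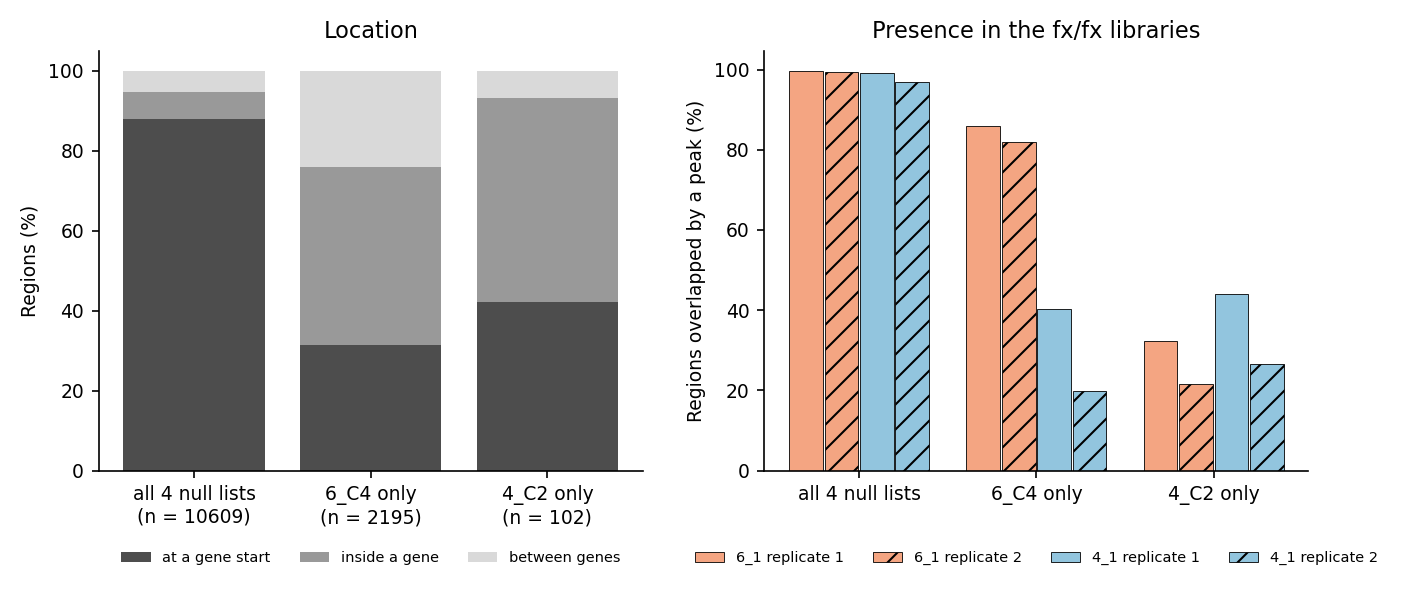
Left, share of regions (%) at a gene start, inside a gene or between genes for regions in all 4 null lists, 6_C4-only regions and 4_C2-only regions. Right, share of the same regions (%) that a peak overlapped in each of the 4 floxed libraries, 1 bar a library. The 6_C4-only regions were found in 86.0 and 82.0% of cases in 6_1 and in 40.2 and 19.8% in 4_1.

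The floxed libraries were not used to choose the regions and share no library with the null comparison. They come from the same 2 isolates, and the lists of 6_1 are longer than those of 4_1, as given above. A common split of null and floxed clones was therefore not separated from list length. The 6_C4-only regions were overlapped by a peak in 86.0 and 82.0% of cases in the 2 lists of 6_1, and in 40.2 and 19.8% in the 2 lists of 4_1. Over all 22288 regions the same shares were 79.0 and 76.0% in 6_1 and 64.8 and 56.6% in 4_1. Of the 2195 regions, 797 (36.3%) were in both 6_1 lists and neither 4_1 list, against 9.51% of all regions, and 1 showed the reverse. Another 311 (14.2%) were in all 4 floxed lists, and 142 (6.47%) were in none. Floxed clones of the 2 isolates thus showed the same split for these 797 regions. The share of 36.3% was 57.2% without 4_1 replicate 1 and 23.6% without 4_C2 replicate 1. Compared on their own, the floxed lists gave 2400 of 22979 regions in 6_1 only (10.4%) and 69 in 4_1 only (0.300%). The 102 4_C2-only regions were seen in 32.4 and 21.6% of cases in 6_1 and 44.1 and 26.5% in 4_1. Of these, 10 were in both 4_1 lists and neither 6_1 list, 4 showed the reverse, and 35 (34.3%) were in no floxed list, 21 of them on chromosome 11. The share in 4_1 alone, 9.80%, was 21.6% without 4_1 replicate 2, 1.55% without 4_C2 replicate 2 and 2.75% without 4_C2 replicate 1.

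More pluripotency genes had a peak in 6_C4 than in 4_C2. Of 22 listed genes with a peak in at least 1 null list, 6 were 6_C4-only and none was 4_C2-only, beside 4.44% and 0.399% of all genes. Per library, 22 and 18 of these genes had a peak in 6_C4, 10 and 9 in 4_C2, 22 and 22 in 6_1 and 16 and 11 in 4_1. Every library of isolate 6 was above every library of isolate 4, and each null library had as many marked genes as its floxed partners or fewer. The 7 members present in all 4 lists had log2 width differences (6_C4 minus 4_C2) above 0, with a median of 0.76 against -0.03 over all regions tested, and none passed the width test described further on. With lists of equal length, 3 of 18 were 6_C4-only (Pou5f1, Zfp42 and Tdgf1), beside 2.03% of all genes. The 6_C4-only count was 10 without 6_C4 replicate 2, beside 7.22% of all genes, and 9 without 4_C2 replicate 1, beside 12.8%.

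Tdgf1 encodes Cripto, the co-receptor through which Nodal signals in the epiblast. Its region (chr9:110942454-110949803) was covered over 7335 and 7102 bp in 6_C4, 0 and 0 bp in 4_C2, 6527 and 6721 bp in 6_1 and 1232 and 0 bp in 4_1. The isolate 6 libraries were all above 6 kb, and 3 of the 4 isolate 4 libraries had no peak at all. Zfp42, known as Rex1 and a classic marker of naive cells (chr8:43304715-43307960), had 3129 and 3199 bp in 6_C4, 0 and 0 bp in 4_C2, 3189 and 3246 bp in 6_1 and 2451 and 0 bp in 4_1. Dppa3, a maternal factor also expressed in germ cells, had 2151 and 1312 bp in 6_C4 and 2085 and 2013 bp in 6_1, and no peak in any library of 4_C2 or 4_1. Dppa4, Dnmt3l (in a region shared with Aire) and Dppa5a had narrower peaks in 6_C4, from 965 to 1447 bp, and none in 4_C2.

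The core factors fell just outside the clone-only rule. Pou5f1, which encodes Oct4 (chr17:35502497-35510087), was covered over 7591 and 4451 bp in 6_C4, 1034 and 0 bp in 4_C2, 6612 and 7290 bp in 6_1 and 1989 and 1141 bp in 4_1. Nanog (chr6:122707183-122710420) was covered over 3172 and 3037 bp in 6_C4, 0 and 929 bp in 4_C2, 3060 and 3238 bp in 6_1 and 1925 and 1592 bp in 4_1. At both genes every isolate 6 library exceeded every isolate 4 library, floxed or null. Sox2, which is also kept in neural progenitors, departed from this order, as 4_1 replicate 2 (6999 bp) exceeded 6_C4 replicate 1 (6605 bp). In the null clones it had 6605 and 7557 bp in 6_C4 and 5660 and 5569 bp in 4_C2. After centring on library medians the log2 difference was 0.06 ± 0.16 SE (limma adjusted p = 0.883). Utf1 was covered over 4169 and 4105 bp in 6_C4 and 0 and 959 bp in 4_C2, and Fgf4 over 3831 and 3379 bp against 1581 and 0 bp. Klf5 (3461 and 3235 bp against 1954 and 774 bp, limma adjusted p = 0.143) and Tbx3 (4220 and 4365 bp against 2171 and 1034 bp, limma adjusted p = 0.0775) did not pass the test.

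The Nodal pathway, which Tdgf1 serves, feeds back through its inhibitors Lefty1 and Lefty2, both direct targets of Nodal signalling. Lefty1 (chr1:180932884-180937728) was covered over 4845 and 4408 bp in 6_C4, 0 and 0 bp in 4_C2, 4573 and 4607 bp in 6_1 and 1254 and 1031 bp in 4_1. Lefty2, its neighbour (chr1:180892769-180895423), had 1842 and 1831 bp in 6_C4, 2655 and 2655 bp in 6_1 and 0 bp in all 4 libraries of isolate 4. Nodal itself, the ligand (chr10:61417681-61421268), had a peak in every library and was wider in 6_C4, at 3588 and 3308 bp against 1545 and 1257 bp (log2 difference 1.03 ± 0.14 SE, limma adjusted p = 0.0253). Smad7, an intracellular inhibitor of the pathway, had 9338 and 8895 bp against 5276 and 3896 bp (limma adjusted p = 0.0718). The receptors Acvr1b, Acvr2a and Acvr2b, the transducers Smad2 and Smad4, and Bmpr1a had peaks in all 4 lists and log2 differences from -0.41 to 0.01, none of which passed. Of 29 listed genes with a peak, 3 were 6_C4-only, beside 4.44% of all genes. Without 4_C2 replicate 1 the count was 7, beside 12.8% of all genes. Of the 21 in all 4 lists 1 passed as wider in 6_C4 and none as narrower. The median over those 21 was -0.10, so the ligand, the co-receptor and the inhibitors were the members with the large differences, chosen here after their values were seen.

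**Figure D2:**
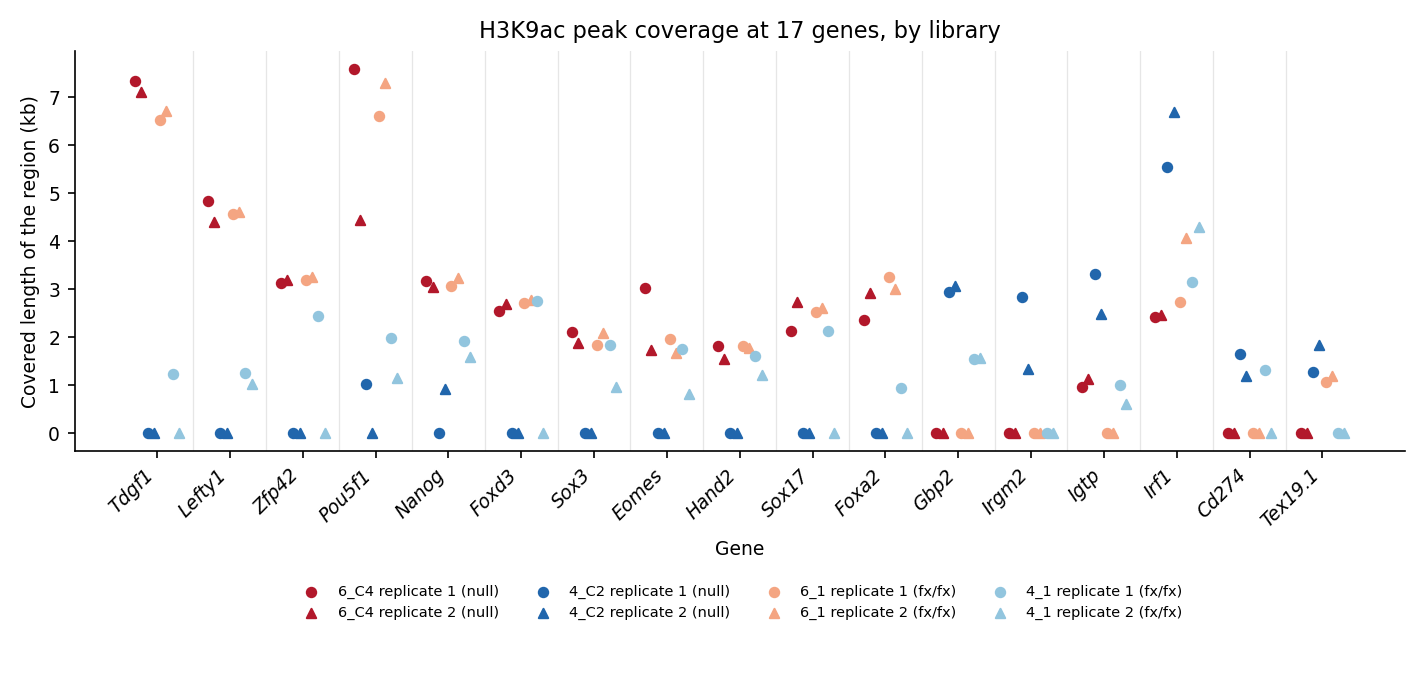
Length of the region matched to each gene that was covered by H3K9ac peaks (kb) in each of the 8 libraries, for 17 genes that the text describes. Lefty1, Sox3 and Sox17 have no start in the promoter table and were matched at either gene end. Circles are replicate 1 and triangles replicate 2. At Tdgf1 the 4 libraries of isolate 6 lie between 6527 and 7335 bp and those of isolate 4 at or below 1232 bp, while Gbp2 is covered only in 4_C2 and 4_1.

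Genes of the primed epiblast, the state that follows naive pluripotency, were mostly marked in both clones. Of 14 listed genes, all with a peak in both 6_C4 lists, 10 were in all 4 null lists. Another 3 were 6_C4-only, beside 4.44% of all genes, among them Foxd3 and Sox3. Foxd3, a forkhead repressor needed in the epiblast (chr4:99655781-99658548), was covered over 2550 and 2697 bp in 6_C4, 0 and 0 bp in 4_C2, 2704 and 2768 bp in 6_1 and 2761 and 0 bp in 4_1. Sox3 (chrX:60891726-60893860) had 2106 and 1878 bp in 6_C4, 0 and 0 bp in 4_C2, 1846 and 2095 bp in 6_1 and 1833 and 961 bp in 4_1. Both were also 6_C4-only with lists of equal length, where the count was again 3 of 14, beside 2.03% of all genes. Fgf5, the standard marker of this state, had 1902 and 1945 bp in 6_C4, 1632 and 1325 bp in 4_C2, 1923 and 1966 bp in 6_1 and 1307 and 914 bp in 4_1. After centring on library medians the log2 difference between the null clones was 0.12 ± 0.14 SE (limma adjusted p = 0.707). Of the 10 members in all 4 lists, 8 had a log2 difference above 0, with a median of 0.26 against -0.03 over all regions tested, and 1, Nodal, passed as wider in 6_C4. The epiblast factors Pou3f1 and Dnmt3a had log2 differences below 0, of -0.08 and -0.31, and neither passed.

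Germ layer genes followed the same direction in counts, with narrower peaks. Of 20 primitive streak and mesoderm genes with a peak, 6 were 6_C4-only and none 4_C2-only, beside 4.44% and 0.399% of all genes. Without 4_C2 replicate 2, 3 were 4_C2-only, beside 1.59% of all genes. Per library 14 and 13 had a peak in 6_C4 against 10 and 5 in 4_C2, 20 and 16 in 6_1 and 15 and 9 in 4_1. Eomes, a T-box factor that directs mesendoderm (chr9:118476816-118480084), was covered over 3017 and 1743 bp in 6_C4, 0 and 0 bp in 4_C2, 1959 and 1669 bp in 6_1 and 1749 and 826 bp in 4_1. Tbx6, of presomitic mesoderm, had 2006 and 1547 bp in 6_C4, Hand2, of heart and limb, 1827 and 1536 bp, and the organizer gene Gsc 1475 and 1519 bp, each with 0 bp in both 4_C2 lists. All 3 had a peak in each of the 4 floxed libraries. These loci were therefore marked in floxed clones of both isolates and without a called peak in 4_C2 alone. Cdx2, which also stands in the trophoblast list, and Pdgfra had peaks of 968 to 1250 bp in 6_C4. The T gene, which encodes Brachyury, had 1 narrow peak in each clone (988 and 0 bp in 6_C4, 992 and 0 bp in 4_C2).

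Of 13 endoderm genes with a peak, 5 were 6_C4-only, beside 4.44% of all genes. Without 4_C2 replicate 1 the count was 8, beside 12.8% of all genes. Per library, 12 and 12 had a peak in the 6_C4 lists against 7 and 3 in 4_C2. Foxa2, a pioneer factor of definitive endoderm (chr2:148043647-148046903), was covered over 2353 and 2916 bp in 6_C4, 0 and 0 bp in 4_C2, 3257 and 2998 bp in 6_1 and 934 and 0 bp in 4_1. Sox17 (chr1:4491310-4494039) was covered over 2137 and 2730 bp in 6_C4, 0 and 0 bp in 4_C2, 2528 and 2612 bp in 6_1 and 2129 and 0 bp in 4_1. Sox7 and Foxa1 had 1140 to 2091 bp in 6_C4 and 0 bp in 4_C2. Of 19 neuroectoderm genes, 4 were 6_C4-only, among them Tubb3, Six3 and Pax3, with 18 and 17 genes marked in 6_C4 against 12 and 7 in 4_C2. Without 4_C2 replicate 1 the neuroectoderm count was 9, beside 12.8% of all genes. With windows at both gene ends, added after seeing the data, Six3 turned to a share difference (6_C4 minus 4_C2) of -0.5. Markers of more than 1 germ layer thus moved together with list length, whose part in this was not tested beyond the lists of equal length. In those, 3 of 11 mesoderm genes were 6_C4-only and 1, Hand1, was 4_C2-only. Hand1 had a peak of 1095 bp in the full list of 6_C4 replicate 1, which the cut removed. The 6_C4-only counts were 2 of 11 for endoderm and 1 of 16 for neuroectoderm. Over all genes 2.03% were 6_C4-only and 2.50% 4_C2-only.

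Markers of other cell types had a peak in at least 1 null list for 8 of 18 blood and endothelium genes, 4 of 12 heart genes, 9 of 12 germ cell genes and 6 of 14 fibroblast genes. Of the blood and endothelium markers, those with no peak in any null list included Gata1, Cdh5, Pecam1 and Hba-x, and none was clone-only. Without 4_C2 replicate 1, 4 were 6_C4-only, beside 12.8% of all genes. Of the 4 marked heart genes, 1 was 6_C4-only, Isl1 (1124 and 1182 bp), beside 4.44% of all genes. The heart count was 2 without 6_C4 replicate 1, beside 6.38% of all genes. Of the 9 marked germ cell genes, Dppa3 and the meiotic gene Sycp3 were 6_C4-only. Without 6_C4 replicate 2 the count was 5, beside 7.22% of all genes. Of the 6 marked fibroblast genes, Twist2 and Prrx1 were 6_C4-only. Of 20 marked Hox genes, 6 were 6_C4-only and 1, Hoxb13, was 4_C2-only, beside 4.44% and 0.399% of all genes. With lists of equal length 2 Hox genes fell in each set, beside 2.03% and 2.50% of all genes. Without 6_C4 replicate 1 the 6_C4-only count was 10, beside 6.38% of all genes. The 6 were Hoxa5, Hoxa13, Hoxc4, Hoxc13, Hoxd1 and Hoxd13, which lie in the A, C and D clusters, while the 4_C2-only member belongs to the B cluster on chromosome 11. Of 20 marked genes of FGF ligands and receptors, 3 were 6_C4-only, beside 4.44% of all genes. Among them were the neighbours Fgf3 (2327 and 1958 bp in 6_C4) and Fgf15 (2082 and 1391 bp).

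In 4 further lists nearly every gene had a peak in each null list, so presence left little room to separate the clones. All 59 cytosolic ribosomal protein genes had a peak in every null list, as did all 27 SAGA and ATAC subunit genes, and 18 of 21 genes of ERK feedback and 11 of 12 of the Myc network. No gene of these 4 lists was clone-only. By width, 45 of 59 ribosomal protein genes were wider in 6_C4, with a median log2 difference of 0.20. Over all regions tested 44.9% were wider, with a median of -0.03. The wider genes were 12 of 27 for SAGA and ATAC, 12 of 18 for ERK feedback and 7 of 11 for the Myc network. With lists of equal length Spred3, an ERK inhibitor, was 6_C4-only. Taf9b of the SAGA and ATAC list was 4_C2-only there because the cut removed its 6_C4 peaks, as it had a peak in each full null list. Without 4_C2 replicate 1 Spry4, Spred3 and Myc were 6_C4-only, beside 12.8% of all genes. Kat2a (chr11:100711559-100714918, a region shared with Hspb9) was covered over 3209 and 3258 bp in 6_C4 and 3087 and 2975 bp in 4_C2. After centring on library medians its log2 difference was -0.18 ± 0.15 SE (limma adjusted p = 0.580). A peak over the Kat2a start is no check of the deletion, because the lists do not show which exons are missing. Kat2b had 5258 and 2736 bp in 6_C4 and 3635 and 2619 bp in 4_C2 (limma adjusted p = 0.971). Taf5l, a SAGA subunit gene on chromosome 8 whose region is shared with Urb2, was the 1 member of its list that passed, at 5851 and 6094 bp in 6_C4 and 2596 and 2590 bp in 4_C2 (log2 difference 0.93 ± 0.15 SE, limma adjusted p = 0.0482). Myc had 4338 and 3690 bp in 6_C4, 1383 and 0 bp in 4_C2, 4565 and 4577 bp in 6_1 and 3577 and 2145 bp in 4_1. Mycn had a peak in all lists (limma adjusted p = 0.170), and so did the ERK-induced factors Etv1 and Etv5, whose log2 differences of 1.62 and 1.32 did not pass (limma adjusted p = 0.0800 and 0.0819).

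Several other genes with long 6_C4-only peaks have roles outside these lists. Cbx7, a Polycomb chromobox protein of stem cells whose promoter is printed above, was covered over 6822 and 6693 bp in 6_C4, 0 and 0 bp in 4_C2, 5984 and 6712 bp in 6_1 and 3948 and 2192 bp in 4_1. The gene was thus widely marked in every clone except 4_C2. Bcl11b, a zinc finger factor, had 3901 and 3594 bp, and Nqo1, a quinone reductase induced by Nrf2, 3738 and 3556 bp in 6_C4, each with 0 bp in 4_C2. At Gdf15, a stress-induced member of the TGF-beta family, and Sema6a, a semaphorin, the whole region was partly covered in 4_C2 replicate 1 (1251 and 2448 bp), away from the gene's window. Gnb3 shares its region with Cdca3 and Usp5, and that region was in all 4 lists.

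The 53 genes of the 4_C2-only set were fewer in sites than in names. They lay in 36 regions, because 17 of them are models of the protocadherin gamma cluster that share 1 region. These 17 models had no start in the promoter table and were matched at either gene end, and the region lies at the end that they have in common. The widest of the set was Gbp2 (chr3:142619060-142622131), covered over 0 and 0 bp in 6_C4, 2947 and 3072 bp in 4_C2, 0 and 0 bp in 6_1 and 1544 and 1559 bp in 4_1. Both clones of isolate 4 had a peak there and neither clone of isolate 6. Irgm2 (chr11:58213871-58216703) had 2833 and 1330 bp in 4_C2 and 0 bp in the other 6 libraries. Igtp, a related GTPase gene on the same chromosome, was in all 4 null lists but wider in 4_C2, as given with the width test. Cd274, which encodes the checkpoint ligand PD-L1, had 1647 and 1202 bp in 4_C2 and 1316 bp in 4_1 replicate 1. With windows at both gene ends, an alternative added after seeing the data, the order at Cd274 turned: the share of 6_C4 lists with a peak minus that of 4_C2 lists was 0.5.

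Abcd2, a peroxisomal transporter, had 2758 and 2333 bp in 4_C2 and 1771 bp in 4_1 replicate 2. Ghdc, whose promoter is printed above, had 3078 and 1689 bp in 4_C2, 1581 and 1695 bp in 6_1, and 1997 and 0 bp in 4_1. Only 6_C4 and 4_1 replicate 2 lacked a peak there. The Bdkrb2 gene of a bradykinin receptor had 2105 and 1330 bp and the cytokine gene Il13 had 2019 and 1051 bp, both with no peak in any of the other 6 libraries. Dkk3, a secreted protein of the Dickkopf family, had 1898 and 1128 bp in 4_C2 and peaks in all 4 floxed libraries, which leaves 6_C4 as the clone without one. Hoxb13 had 2021 and 1441 bp. At Epn3 the region was in all 8 lists, and the clones differed in whether a peak reached the windows at the gene ends. Of the 53 genes, 11 had no peak in their region in any floxed list.

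Chromosome 11 departed from the other chromosomes in its share of clone-only regions, its share of peaks and its peak widths. It held 2374 regions, 10.7% of the total, but 49 of the 102 4_C2-only regions (48.0%) and 104 of the 2195 6_C4-only regions (4.74%). Of its regions, 2.06% were 4_C2-only, while the 17 chromosomes other than 6, 8 and 11, X included, ranged from 0 to 0.652%. The share of a library's peaks that lay on chromosome 11 was 8.63 and 9.01% in 6_C4, 12.1 and 11.1% in 4_C2, 8.59 and 8.63% in 6_1 and 10.1 and 10.1% in 4_1. The 2 libraries of 4_C2 were the highest of the 8, and both clones of isolate 4 lay above both of isolate 6. With lists of equal length, 133 of the 518 4_C2-only regions lay there, 6.97% of its regions against 0.601 to 5.45% on the other autosomes and X.

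**Figure D3:**
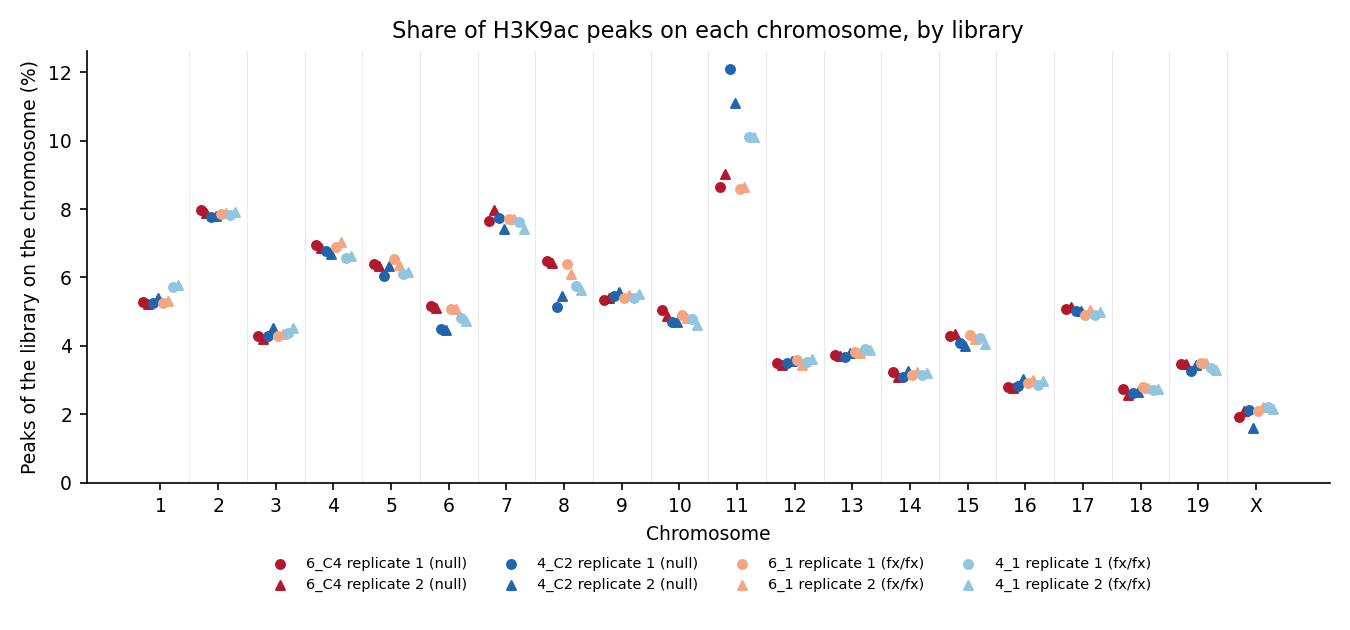
Share of each library's peaks (%) on each chromosome, for the 8 libraries. Circles are replicate 1 and triangles replicate 2, with null clones in dark and floxed clones in light colours. On chromosome 11 the 4_C2 libraries lie at 12.1 and 11.1% and the 6_C4 libraries at 8.63 and 9.01%, and on chromosome 8 the order is reversed.

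Chromosome 8 showed the opposite. It held 6.42% of regions and 9.25% of the 6_C4-only regions, and 14.2% of its regions were 6_C4-only, the highest share of any chromosome, next to 13.9% on chromosome 6. Its share of peaks was 6.49 and 6.41% in 6_C4, 5.14 and 5.47% in 4_C2, 6.39 and 6.10% in 6_1 and 5.76 and 5.63% in 4_1. With lists of equal length 106 of the 741 6_C4-only regions lay on it, 10.6% of its regions. The mean share differed between the null clones by 1.15 percentage points on chromosome 8 and by -2.79 on chromosome 11, both without overlap of the libraries (two-sided exact permutation p = 0.333, the smallest possible). Over the 17 remaining chromosomes this difference ranged from -0.174 to 0.279 percentage points. Chromosome 6, with 155 6_C4-only regions, had a difference of 0.656. On the X chromosome 36 of 350 marked genes were 6_C4-only, 10.3% against 1.33 to 6.92% on the autosomes. Regions there were narrower in all 8 libraries than the library median.

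**Figure D4:**
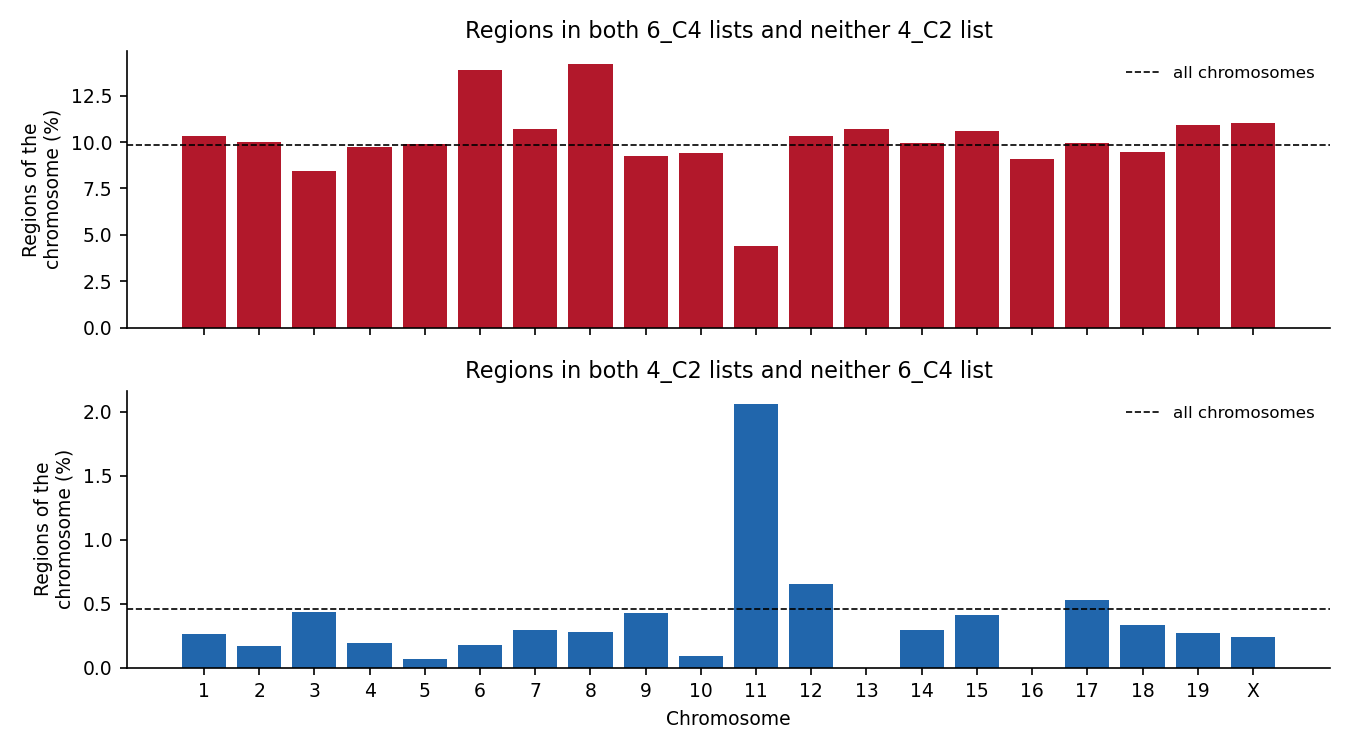
Share of each chromosome's regions (%) that were 6_C4-only (top) and 4_C2-only (bottom), with the share over all chromosomes as a dashed line at 9.85 and 0.458%. Chromosome 8 has the tallest bar at the top with 14.2%, and chromosome 11 the shortest at the top with 4.38% and the tallest at the bottom with 2.06%.

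Peak width showed the same 2 chromosomes, in regions that both clones share. For the 10609 regions in all 4 null lists, log2 covered length was used, minus the library's median. On chromosome 11 the median difference (6_C4 minus 4_C2) was -0.31, and 927 of 1014 regions were narrower in 6_C4. On chromosome 8 it was 0.18, and 423 of 575 regions were wider in 6_C4. On the other chromosomes apart from 6, which had 0.04, medians ran from -0.06 to 0.03. The difference ran along the whole of chromosome 11: in 7 windows of 20 Mb the median lay between -0.34 and -0.28. On chromosome 8 the windows of 20 Mb ranged from -0.01 between 40 and 60 Mb to 0.28 beyond 120 Mb. In the floxed comparison (6_1 minus 4_1), over the 10204 of these regions in all 8 lists, the medians had the same signs. These medians were smaller, at -0.15 on chromosome 11 and 0.06 on chromosome 8. Without centring they were -0.04 and 0.45 in the null clones, because all widths together shifted by 0.27 towards 6_C4. DNA copy number per chromosome was not analysed here, so whole-chromosome gain or loss in a clone was not tested.

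**Figure D5:**
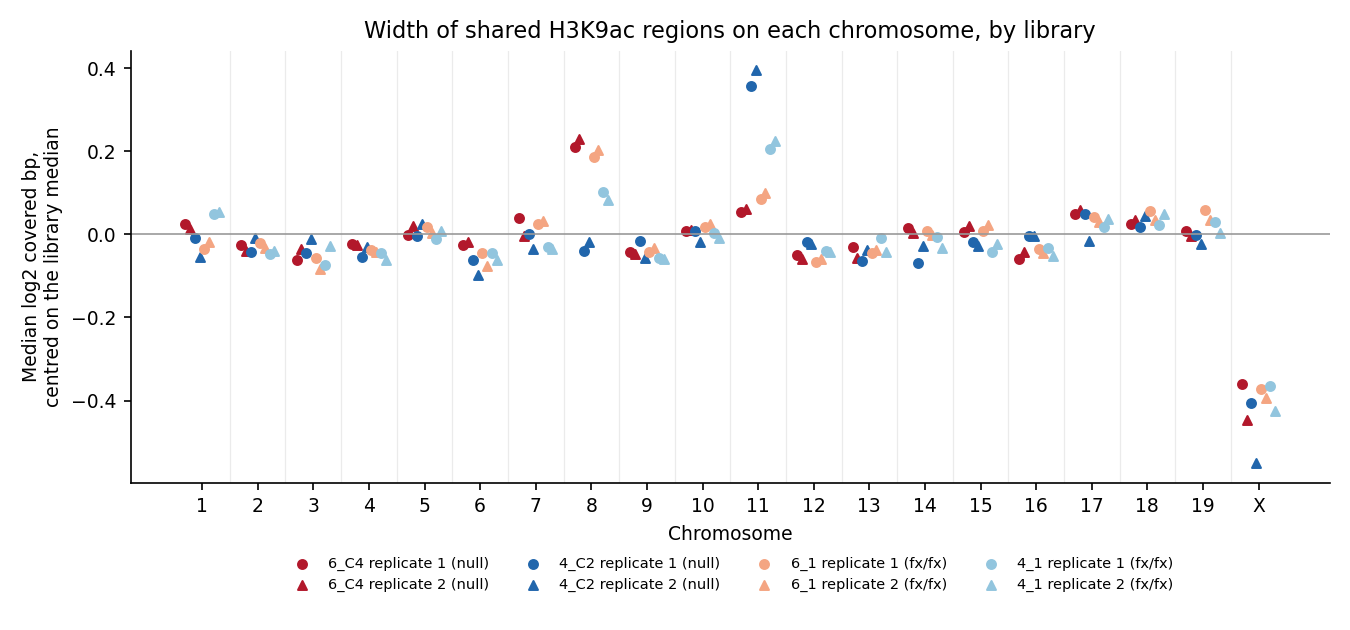
Median log2 covered length of regions on each chromosome, centred on the library's median over all regions used, for each of the 8 libraries. The null libraries use the 10609 regions in all 4 null lists. The floxed libraries use the 10204 of these that were also in all 4 floxed lists. On chromosome 11 the 4_C2 libraries lie at 0.36 and 0.40 and the 6_C4 libraries at 0.05 and 0.06, with 4_1 between them, while on chromosome 8 the 6_C4 libraries lie at 0.21 and 0.23 and the 4_C2 libraries at -0.04 and -0.02.

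Single regions were then tested for width with limma, adjusted by the Benjamini-Hochberg method over all 10609. In 6_C4, 76 regions (0.716%) were wider and 18 (0.170%) narrower, with an adjusted p below 0.05. Of the 76, 15 lay on chromosome 8 and none on chromosome 11, and of the 18, 15 lay on chromosome 11. Without centring 7 regions passed as wider and 0 as narrower. Without 4_C2 replicate 2, 0 of 12516 regions passed in limma in either direction and 1663 had an unadjusted p below 0.05. Without 6_C4 replicate 1, 2 passed as wider and 0 as narrower (904 at p below 0.05 before adjustment), and the wider count was 25 without 6_C4 replicate 2 and 151 without 4_C2 replicate 1. In the floxed clones 72 of the 75 wider regions that could be compared had the same sign and 21 passed there too, while 11 of 12 narrower regions had the same sign and 0 passed. Of all 10204 regions compared, 6925 (67.9%) had the same sign in the null and the floxed comparison, and 68 passed as wider and 2 as narrower in 6_1. A test of whether the difference between isolates itself changed between null and floxed clones passed for 0 of 10204 regions in limma, although 657 had p values below 0.05 before adjustment.

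The region with the largest change, picked out after its value was seen, lay inside Rbpms, an RNA-binding protein gene, at chr8:33911637-33922332 and away from an annotated start. It was covered over 9861 and 9994 bp in 6_C4, 1072 and 658 bp in 4_C2, 10636 and 10065 bp in 6_1 and 6339 and 3361 bp in 4_1, and the log2 difference between the null clones was 3.29 ± 0.18 SE (limma adjusted p = 0.00185). The libraries of 4_C2 were the lowest of the 8. Among gene starts, Myo10, an unconventional myosin of filopodia (chr15:25752142-25760841), had the largest change, with 7930 and 7793 bp in 6_C4, 1670 and 827 bp in 4_C2, 8355 and 8508 bp in 6_1 and 4725 and 3711 bp in 4_1 (log2 difference 2.47 ± 0.24 SE, limma adjusted p = 0.0155). Mymx, which encodes a fusion peptide of myoblasts, had 3849 and 3928 bp against 906 and 904 bp (limma adjusted p = 0.0152). Ago1, an Argonaute protein of RNA silencing, had 5119 and 6000 bp against 1296 and 1416 bp (limma adjusted p = 0.0155). In the floxed clones Ago1 was wide throughout, from 4035 to 5901 bp, which leaves 4_C2 as the clone with a narrow peak.

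Bcat2, a mitochondrial aminotransferase for branched-chain amino acids, had 8201 and 7673 bp in 6_C4 against 2064 and 2083 bp in 4_C2 (limma adjusted p = 0.0152), a difference that was also seen in the floxed clones at 7925 and 8201 bp against 3326 and 3057 bp. Without 6_C4 replicate 1 the lists were merged anew, and the longest tested region left at Bcat2 had a log2 difference of -0.04. That was not the whole region described here, so the value does not measure the same width. Slc7a5, a large neutral amino acid transporter on chromosome 8, had 7571 and 4814 bp against 1799 and 1494 bp (limma adjusted p = 0.0253). The start region shared by Mvk, mevalonate kinase, and Mmab had 2998 and 3387 bp against 836 and 991 bp. Tcf15, a bHLH factor that primes stem cells for differentiation, had 4777 and 4630 bp against 1313 and 1454 bp (limma adjusted p = 0.021). Ifi30, an interferon-gamma-inducible lysosomal thiol reductase on chromosome 8, had 6606 and 5050 bp in 6_C4 against 1912 and 1237 bp in 4_C2 (limma adjusted p = 0.021). Ifi30 and Fam160b1 complete the 10 genes with the largest increase.

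All 10 genes with the largest decrease in 6_C4 lay on chromosome 11. Igtp, an interferon-inducible GTPase (chr11:58198734-58202046), was covered over 962 and 1124 bp in 6_C4, 3313 and 2485 bp in 4_C2, 0 and 0 bp in 6_1 and 1002 and 606 bp in 4_1 (log2 difference -1.74 ± 0.15 SE, limma adjusted p = 0.0152). Both null clones thus exceeded 6_1, and 4_C2 stood above all other libraries. Irf1, a transcription factor of the interferon response (chr11:53768744-53775758), had 2423 and 2460 bp in 6_C4, 5554 and 6689 bp in 4_C2, 2726 and 4059 bp in 6_1 and 3142 and 4299 bp in 4_1 (log2 difference -1.59 ± 0.19 SE, limma adjusted p = 0.0253). Pgap3, which remodels GPI anchors, had 2551 and 1920 bp against 7192 and 4343 bp (limma adjusted p = 0.0253). Scrn2 (1509 and 1620 bp against 5242 and 2857 bp), Cygb, which encodes cytoglobin (1200 and 1415 bp against 2625 and 2335 bp), and Hoxb7 (1162 and 1130 bp against 2336 and 1935 bp) followed. The remaining 4 were Tlcd2, Zbtb4, a zinc finger protein that binds methylated CpG, Rilp, an effector of lysosomal Rab proteins, and Adcy1, an adenylyl cyclase, with log2 differences from -1.15 to -0.93. Of the 3 called regions off this chromosome, 1 lay at Aen, a p53 target that encodes a nuclease, with 1549 and 1512 bp against 2422 and 2048 bp (limma adjusted p = 0.0487). Sesn2, another p53 target, passed in the other direction, with 5526 and 6236 bp against 2741 and 2392 bp (limma adjusted p = 0.042).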

How the data were processed

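H3K9ac was profiled by chromatin immunoprecipitation and sequencing. The authors deposited 1 peak list per library, holding positions only, without heights, scores or p-values. Per the submitters' processing notes, reads were handled with Bowtie 1.1.2 and MACS 1.4.2 on mm10. The threshold, filters and control of peak calling, not given in the sources used here, are unknown. Depth is unknown, so no counting interval is given.

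Peaks overlapping by at least 1 bp were merged. Coordinates are counted from 1. Gene starts came from the RefSeq promoter table of GRCm38.p6 for 17492 of 21887 protein-coding genes, and for the other 4395 windows lay at both gene ends. Counts and medians were computed in Python 3.11.15 (SciPy 1.17.1, numpy 2.4.6, pandas 2.3.3). Region widths (log2 of covered bp, regions in all 4 lists, centred on library medians) were tested with limma 3.58.1 in R 4.3.3, with Benjamini-Hochberg adjustment at 0.05, and the script was tested on simulated data. Figures used matplotlib 3.10.9. Nothing in the labels names separate cultures for the replicates, so p-values measure the spread between these libraries.

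Members and the 21 gene lists (501 of 504 entries matched) were chosen with earlier results of these data known. Named genes were, in each direction, the 12 clone-only genes with the largest covered length, up to 6 clone-only members of each list, the 10 with the largest called width change, 8 single genes (Kat2a, Kat2b, Myc, Mycn, Pou5f1, Nanog, Fgf5 and T) and the 3 widest regions away from gene starts. Some genes that this rule takes are not reported here. Other members of the lists are named as parts of their list. Alternatives were other windows, minimum widths, overlaps and merging, lists of equal length, other width models and leaving out each library. Windows at both gene ends and the test between null and floxed comparisons were added after seeing the data.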

Additional observations from a re-analysis of the deposited data

Results flagged for a closer look

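At Tex19.1, a gene of germ cells and placenta on chromosome 11, covered length was 1560 bp lower in 6_C4 than in 4_C2 (6_C4 minus 4_C2, -1560.0 bp), while in the floxed clones 6_1 exceeded 4_1 by 1138 bp. The libraries had 0 and 0 bp in 6_C4, 1284 and 1837 bp in 4_C2, 1075 and 1202 bp in 6_1 and 0 and 0 bp in 4_1. At Rilp the same differences were -998.5 bp in the null clones and 141.5 bp in the floxed clones. These genes were picked out because every library of one isolate was above every library of the other in the null clones and below in the floxed clones. The difference between the 2 comparisons was not tested for Tex19.1, whose peak is missing in some lists, and for Rilp limma gave an adjusted p of 0.288.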

How the results depend on the processing

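No list gives depth or peak height, so all lists could be matched only by cutting them to their widest peaks, which favours wide peaks. A narrow peak removed from a longer list then counts as absent. With such lists of equal length, 741 regions and 243 genes were 6_C4-only and 518 regions and 300 genes were 4_C2-only. Of these regions 36.03% and 57.34% lay at gene starts. Chromosome 8 then held 14.3% of 6_C4-only regions and chromosome 11 held 25.68% of 4_C2-only regions, and 26.06% of 4_C2-only regions were in every 4_1 list and no 6_1 list. The width test called 26 regions wider and 7 narrower in 6_C4. Windows of 2000 bp put 35.17% of 6_C4-only regions at gene starts, and peaks of at least 1000 bp left 27 4_C2-only genes. Without centring 7 regions were wider and 0 narrower (2150 at an unadjusted p under 0.05 in limma), and taking regions of 2 or more lists, with a 100 bp pseudocount, 2232 were wider and 124 narrower.

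Replicate numbers were not used as pairs in the main test. Deviations of same-numbered libraries had a correlation of 0.0058 over 10609 regions, which cannot show whether those libraries were handled together. With the replicate number as a block, 156 regions were wider and 46 narrower.

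Leaving out each library in turn gave 2444 to 5340 6_C4-only regions, 199 to 1225 4_C2-only regions, 704 to 1683 6_C4-only genes and 71 to 211 4_C2-only genes. Wider regions numbered 0 to 151 and narrower ones 0 to 19, with the lone library of a clone assumed to vary like the others. Chromosome 8 held 7.32 to 9.71% of 6_C4-only regions, chromosome 11 5.57 to 6.26% of them and 36.3 to 43.4% of 4_C2-only regions. The share of 6_C4-only regions in every 6_1 list and no 4_1 list ran from 23.58 to 57.18%, and that of 4_C2-only regions in the reverse pattern from 1.551 to 21.57%. The median log2 width difference stayed between -0.36 and -0.28 on chromosome 11 and between 0.15 and 0.17 on chromosome 8. The difference in median peak width ran from -35.0 to 148 bp, and was below 0 without 4_C2 replicate 2.

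With windows at both gene ends, added after seeing the data, the share of 6_C4 lists with a peak minus that of 4_C2 lists turned to 0.5 at Cd274 and to -0.5 at Six3. At Bcat2 the log2 width difference was 1.798 without 4_C2 replicate 2. Without 6_C4 replicate 1 a value of -0.0367 was read from a different, newly merged region. Of 20 named genes with a called width, 20 stayed past the threshold with the block, 4 without centring and 0 without 4_C2 replicate 2.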
